A study of Mus musculus with 2 samples.

Results

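The nuclear receptor family was followed as 46 listed mouse genes in brown adipose tissue, and 14 of the 46 had enough molecules in adipocyte nuclei for a ratio between conditions. Nuclear receptors are transcription factors whose activity is set by small lipid-soluble ligands, coactivators and corepressors. Many of them bind DNA as heterodimers with the retinoid X receptors. In brown fat, peroxisome proliferator-activated receptor gamma (Pparg) drives adipocyte identity, PPAR alpha (Ppara) and the oestrogen-related receptors drive fatty acid oxidation and mitochondrial genes, and thyroid hormone receptors support Ucp1, the uncoupling protein that releases heat. Adipocyte nuclei held at least 3 UMIs over Acsl1, Pde3b, Lipe, Plin1 and Cidea and under 5% mitochondrially encoded UMIs. A UMI is a molecular tag that counts each captured RNA molecule once. A ratio was computed for genes with at least 100 UMIs over the adipocyte nuclei of both libraries, out of 31053 genes in the matrices.

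The study used single-nucleus RNA sequencing of brown adipose tissue from C57BL/6 mice, a common inbred strain, with nuclei sorted on DAPI, a DNA stain, before droplet capture. The 1cyc library came from mice taken on day 4 following 1 short, acute bout of cold, and the TN library from mice kept at thermoneutrality. Each library pooled the nuclei of 5 mice, with no record of which mouse a nucleus came from. There was therefore 1 library per condition, no test between conditions, and no way to tell condition from library. Levels are given as CPM, counts per 1000000 UMIs of the summed nuclei, and values in parentheses are 95% intervals for counting error only. Ratios are CPM in 1cyc over CPM in TN.

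The gate found 779 adipocyte nuclei among 4321 barcodes in 1cyc and 888 among 2551 in TN. They summed to 900977 UMIs in 1cyc and 1008450 in TN, with a median of 1049 UMIs per nucleus in 1cyc and 906 in TN. The libraries were cut at different depths, since the shallowest deposited barcode held 262 UMIs in 1cyc and 500 in TN. Median mitochondrially encoded shares over all barcodes were 22.1% in 1cyc and 4.76% in TN, and among the adipocyte nuclei 1.85% and 2.67%. The libraries shared 6 barcode sequences, 0 of them among adipocyte nuclei. Adipocyte markers outside the gate (8 genes, all detected) summed to 7515 CPM in 1cyc and 8123 CPM in TN, against 3004 CPM and 4089 CPM in the remaining nuclei. Markers of other cell types were lower in the 1cyc adipocyte sum for several classes. Haemoglobin and other erythroid genes summed to 229 CPM in 1cyc and 32733 CPM in TN, fibroblast genes to 229 CPM and 556 CPM, and skeletal muscle genes to 586 CPM and 875 CPM. In these nuclei 12 of 12 fibroblast markers were detected in both libraries, 9 of 10 skeletal muscle markers in 1cyc and 10 of 10 in TN, 5 of 6 erythroid markers in both, and 0 of 8 mesothelial markers in 1cyc against 2 in TN. The ratios were therefore also computed in the larger adipocyte subcluster alone, which leaves out nuclei that clustered with other cell types' genes.

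Promoter windows of 4 members are shown. Ppara and Esrra had the largest ratios among the measured members, Pparg defines the adipocyte, and Nr4a1 held a run of motif matches found in no other member. The sequences are RefSeq windows of build GRCm38.p6, each 250 bases before to 50 after a listed start, read 5′ to 3′ on the gene's strand, and 42 of the 46 members had at least 1 window. Capitals mark the nuclear receptor core motif AGGTCA in Ppara (chr15:85735526-85735825, plus strand), Esrra (chr19:6921759-6922058, minus strand) and the most upstream of 3 listed Pparg starts (chr6:115360894-115361193, plus strand). In Nr4a1 (chr15:101266596-101266895, plus strand) they mark TGCGTCA, a motif like the cAMP response element.
Ppara: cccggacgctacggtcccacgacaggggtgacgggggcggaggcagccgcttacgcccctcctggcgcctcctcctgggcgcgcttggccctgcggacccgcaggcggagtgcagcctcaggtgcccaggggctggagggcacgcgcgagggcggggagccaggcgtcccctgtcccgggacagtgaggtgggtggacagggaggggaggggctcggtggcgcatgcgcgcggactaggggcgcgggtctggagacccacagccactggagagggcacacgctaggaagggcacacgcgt
Esrra: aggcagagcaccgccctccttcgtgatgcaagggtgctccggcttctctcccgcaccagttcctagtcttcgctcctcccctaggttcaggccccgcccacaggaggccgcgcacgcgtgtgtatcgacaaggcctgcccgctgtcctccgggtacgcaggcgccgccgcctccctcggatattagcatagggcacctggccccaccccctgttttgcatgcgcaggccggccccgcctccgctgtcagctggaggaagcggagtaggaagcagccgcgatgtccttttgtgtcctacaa
Pparg: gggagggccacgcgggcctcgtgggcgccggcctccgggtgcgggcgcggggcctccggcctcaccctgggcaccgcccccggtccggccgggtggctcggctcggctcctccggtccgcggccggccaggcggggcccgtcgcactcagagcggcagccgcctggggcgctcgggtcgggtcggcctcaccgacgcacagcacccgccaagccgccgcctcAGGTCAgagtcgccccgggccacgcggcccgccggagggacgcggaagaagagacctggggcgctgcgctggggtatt
Nr4a1: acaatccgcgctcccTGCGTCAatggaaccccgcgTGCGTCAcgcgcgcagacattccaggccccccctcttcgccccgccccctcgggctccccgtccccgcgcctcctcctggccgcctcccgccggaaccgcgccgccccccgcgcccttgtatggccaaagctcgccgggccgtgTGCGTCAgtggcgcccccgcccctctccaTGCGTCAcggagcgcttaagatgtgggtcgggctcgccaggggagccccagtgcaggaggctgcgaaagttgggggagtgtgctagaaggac
Both strands were searched. AGGTCA was found 1 time in the Pparg window and not in the Ppara and Esrra windows. It was present in 16.3% of all 32851 mouse promoter windows and in 12 of 63 windows of the family. TGCGTCA was found 4 times in the Nr4a1 window, against 2.12% of all windows with at least 1 match, and Nr4a1 held the only family window with it. The longer motif TCAAGGTCA, preferred by oestrogen-related receptors, was in 0.423% of all windows, and a direct repeat of 2 AGGTCA cores with 1 base between them in 0.0396%. Neither was in a window of a member. These are letter matches in short windows and not measured binding.

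Among the 14 measured receptors, Ppara and Esrra were at least 25% higher in 1cyc adipocyte nuclei and 0 were at least 20% lower, the same distance from 1 on a log scale. Esrra alone passed 1.5-fold, and its interval spans that value. Over all 3309 genes with at least 100 UMIs, 23.6% passed the 25% higher limit and 11% the 20% lower limit. For the 1.5-fold limit the shares were 8.1% in the higher and 3.78% in the lower direction. Between the 25% higher and 20% lower limits lay 12 of the 14 members (85.7%), against 65.4% of all measured genes. These sets were not matched for counts. Nr2c2, the measured member with the fewest UMIs, had 292 over both libraries, while the minimum for all genes was 100. With a minimum of 200 UMIs 1823 genes remained, of which 6.86% passed the 1.5-fold limit upward and 2.63% downward. The part of counts in the narrower spread of the members was not tested. The median log2 ratio was 0.05 over the 14 members and 0.08 over all measured genes. The interval of the ratio, for counting error only, lay above 1 for 4 of the 14 members and for 624 of the 3309 genes. It lay below 1 for 0 members and 303 genes. Rescaling the libraries moved the median of all genes by −0.13 with TMM and by −0.16 with median-of-ratios scaling, and the share of higher calls among all genes past 1.5-fold was 68.2% with totals, 45.2% with TMM and 37.5% with median-of-ratios. Relative to the median of all genes, which one common scaling factor cannot change, Ppara stood 0.37 higher on the log2 scale, Esrra 0.56 higher, Pparg 0.07 higher and Esrrg 0.02 lower.

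**Figure D1:**
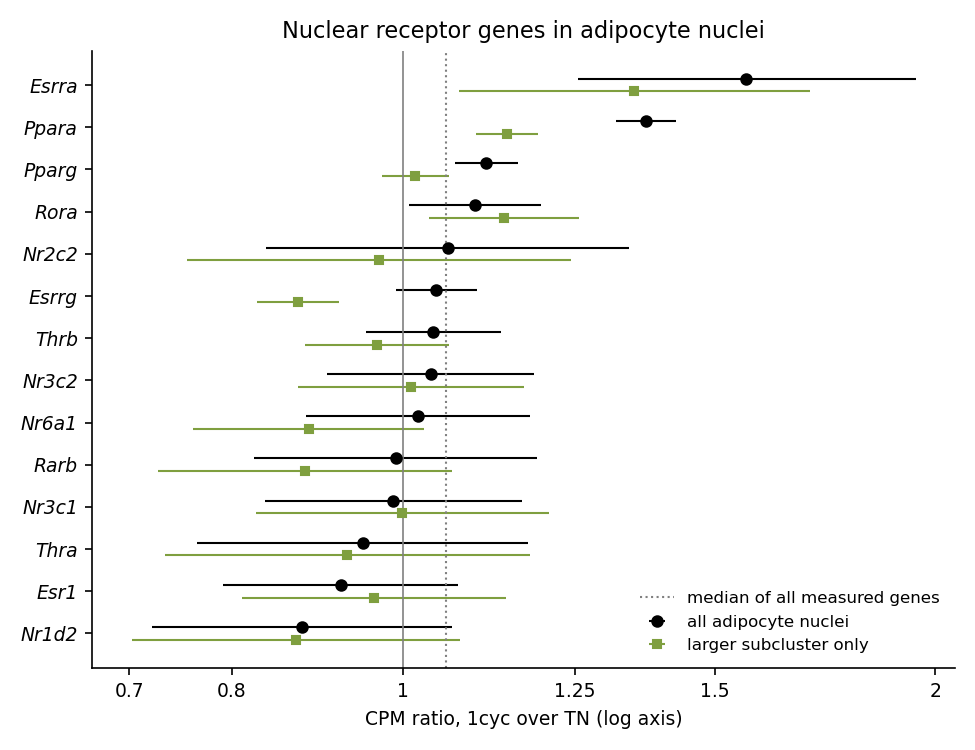
CPM ratio of 1cyc over TN for the 14 measured nuclear receptor genes, on a log axis, in all adipocyte nuclei (black circles) and in the larger adipocyte subcluster (green squares). Bars are 95% intervals for counting error, the solid line marks a ratio of 1 and the dotted line the median of all 3309 measured genes. Esrra and Ppara lie to the right of 1 in both sets of nuclei, and Esrrg moves from 1.04 in all nuclei to 0.872 in the larger subcluster.

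All 46 genes together made up 19399 CPM (19112 to 19689) of the 1cyc adipocyte sum and 16808 CPM (16556 to 17063) of the TN sum, a ratio of 1.15 (1.13 to 1.18). Ppara, Pparg and Esrrg supplied 73.2% of the family's UMIs in 1cyc and 70.7% in TN. Without Ppara the ratio of the sum was 1.08 (1.05 to 1.10). The 32 members under 100 UMIs contributed 421 CPM in 1cyc and 321 CPM in TN.

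The PPARs supplied 58.1% of the family's UMIs in 1cyc and 54.1% in TN. Ppara, the fatty acid sensor of oxidative tissues (chromosome 15, 85734983 to 85802819, plus strand, mm10), had 5522 UMIs in 1cyc and 4506 in TN. Its level was 6129 CPM (5968 to 6293) in 1cyc and 4468 CPM (4339 to 4601) in TN, a ratio of 1.37 (1.32 to 1.43). The intervals of the libraries did not overlap. Pparg, the receptor that adipocytes need to form and persist (chromosome 6, 115360951 to 115490399, plus strand), was at 5094 CPM (4948 to 5244) in 1cyc and 4573 CPM (4442 to 4707) in TN. Its ratio of 1.11 (1.07 to 1.16) was close to the median of all genes, 1.06. Per kilobase of gene span, Ppara was at 90.3 CPM per kb in 1cyc and 65.9 in TN, and Pparg at 39.4 and 35.3. These were the highest levels per kb of span among the measured members in both libraries. Per kilobase of exons the order turned, with Pparg at 1725 CPM per kb in 1cyc and 1549 in TN, and Ppara at 1598 and 1165. The order of these genes depends on the scale, and whether intronic reads were counted is not stated. Ppard, the broadly expressed delta form, had only 38 UMIs in 1cyc and 47 in TN, or 42.2 CPM and 46.6 CPM.

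The oestrogen-related receptors bind no known natural steroid and act with PGC-1 type coactivators on mitochondrial genes. Esrra (chromosome 19, 6910977 to 6921813, minus strand) was at 223 CPM (193 to 256) in 1cyc and 143 CPM (120 to 168) in TN, from 201 and 144 UMIs. Its ratio of 1.56 (1.26 to 1.95) was the largest of the 14, and the library intervals did not overlap. Esrrg (chromosome 1, 187608791 to 188214885, plus strand) lies in a much longer gene. Per kb of span, Esrra stood at 20.6 CPM in 1cyc and 13.2 in TN, and Esrrg at 4.90 and 4.70. Per kb of exons the order turned, with Esrra at 50.9 CPM in 1cyc and 32.5 in TN, and Esrrg at 479 and 458. Esrrg had 2971 CPM (2860 to 3086) in 1cyc and 2846 CPM (2743 to 2952) in TN, a ratio of 1.04 (0.990 to 1.10). Esrrb was near absent, with 6 UMIs in 1cyc and 7 in TN.

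Thyroid hormone and retinoic acid receptors had ratios near 1, while the retinoid X receptors had few UMIs and more of them in 1cyc. Thrb, the thyroid hormone receptor tied to Ucp1 induction, was at 1088 CPM in 1cyc and 1046 CPM in TN (ratio 1.04, 0.952 to 1.14). Thra, the other thyroid hormone receptor, was at 179 CPM and 188 CPM (ratio 0.948, 0.764 to 1.18). The thyroid receptor intervals overlapped between the libraries for both genes. Rarb had the most UMIs of the retinoic acid receptors, at 248 CPM in 1cyc and 250 CPM in TN (ratio 0.990, 0.823 to 1.19), while Rara had 9 UMIs and 7 UMIs and Rarg 18 and 16. The retinoid X receptors, the shared dimer partners of the PPARs, thyroid and retinoic acid receptors, were at low counts. Rxra had 11 UMIs in 1cyc and 7 in TN, Rxrb 19 and 9, and Rxrg 26 and 12. Rxra alone had an interval of its ratio that spans 1. Summed, the 3 genes gave 62.2 CPM (47.0 to 80.7) in 1cyc and 27.8 CPM (18.4 to 40.1) in TN, a ratio of 2.24 (1.40 to 3.66) from 56 and 28 UMIs. The sum, like each of the 3 genes, is under the minimum of 100 UMIs used for the other ratios. All 32 members under 100 UMIs, these 3 included, summed to a ratio of 1.31 (1.13 to 1.52), so low-count members as a group were also higher in 1cyc.

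Receptors of the circadian clock showed no common direction. Nr1d2, encoding REV-ERB beta, a repressor of Arntl, was at 209 CPM (180 to 241) in 1cyc and 238 CPM (209 to 270) in TN, and its ratio of 0.877 (0.721 to 1.07) was the lowest of the 14. Nr1d1, encoding REV-ERB alpha, went the other way with 26 UMIs in 1cyc and 15 in TN. Rora, an activator at the same DNA elements, was at 1167 CPM (1097 to 1239) in 1cyc and 1062 CPM (999 to 1128) in TN, a ratio of 1.10 (1.01 to 1.20). Rorb had 23 UMIs in 1cyc and 25 in TN. The time of day of collection is not given in the sources used, and it cannot be told apart from condition.

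Steroid receptors were nearly level between the libraries. Nr3c1, the glucocorticoid receptor, was at 299 CPM in 1cyc and 302 CPM in TN (ratio 0.987, 0.835 to 1.17). Nr3c2, the mineralocorticoid receptor, was at 471 CPM and 454 CPM (1.04, 0.906 to 1.19). Esr1, the main oestrogen receptor of fat, was at 347 CPM in 1cyc and 377 CPM in TN (0.922, 0.791 to 1.07). The intervals of the libraries overlapped for these 3 genes. Esr2 had 0 UMIs in 1cyc and 3 in TN, and Pgr, the progesterone receptor, had 0 in both. The orphan receptors with a ratio were Nr2c2, a testicular receptor, at 158 CPM in 1cyc and 149 CPM in TN (1.06, 0.836 to 1.34), and Nr6a1, the germ cell nuclear factor, at 397 CPM and 390 CPM (1.02, 0.881 to 1.18).

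The sterol and stress-induced receptors were at low counts. Nr1h3 (LXR alpha), which senses oxysterols in fat and liver, had 27 UMIs in 1cyc and 45 in TN, while the related gene Nr1h2 (LXR beta) had 16 and 4. Nr1h4, the bile acid receptor, had 11 UMIs in 7 nuclei in 1cyc and 2 UMIs in TN. Nr4a1, the immediate early receptor whose promoter window holds 4 TGCGTCA matches, had 52 UMIs in 1cyc and 34 in TN, or 57.7 CPM (43.1 to 75.7) and 33.7 CPM (23.3 to 47.1). Nr4a2 had 33 UMIs in 1cyc and 32 in TN, and Nr4a3 1 and 0. For Nr4a1 the level intervals overlapped while the ratio was 1.71 (1.09 to 2.72), and in the larger subcluster it was 1.43 (0.904 to 2.28). Of the other members, Nr2c1 had 36 and 33 UMIs, Nr2f2 16 and 14, Nr2f6 3 and 9, and Nr2f1 2 and 2. Nr1i2, Hnf4a, Hnf4g and Nr2e1 had at most 2 UMIs in either library. Vdr, Nr1i3, Nr2e3, Nr5a1, Nr5a2, Nr0b1 and Nr0b2 had 0 UMIs in both, like Pgr, which allows up to 3.33 CPM in 1cyc and 2.97 CPM in TN at a floor of 3 counts. In all, 12 members had 20 to 99 UMIs over both libraries, 12 had 1 to 19 and 8 had 0.

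Over all gated adipocyte nuclei, the share of nuclei with a Ppara UMI differed between the libraries. After each nucleus was thinned to 500 UMIs, a Ppara UMI was present in 91.5% (89.3 to 93.5) of 710 1cyc nuclei and in 80.9% (78.1 to 83.4) of 888 TN nuclei. Thinning left out 69 1cyc nuclei and 0 TN nuclei, and the unthinned shares were 95.9% and 91.4%. These shares mix the subclusters described below. A smaller subcluster low in Ppara made up 3.59% of adipocyte nuclei in 1cyc and 11.5% in TN. Subclusters led by genes of other cell types made up 1.67% and 3.94%. Shares inside the larger subcluster alone were not computed. Nuclei of the fibroblast or progenitor class, thinned the same way, held a Ppara UMI in 15.5% in 1cyc and 29.5% in TN at median depths of 1030 and 1114.5 UMIs. Pparg was present in 85.6% of 1cyc and 86.5% of TN adipocyte nuclei, Esrrg in 71.3% and 72.2%, Rora in 41.4% and 38.2%, and Thrb in 40.1% and 40.4%. The intervals overlapped for these 4 genes, and their unthinned shares ran from 62.0% to 91.8% in 1cyc and from 59.9% to 95.8% in TN. Esrra was present in 10.6% (8.40 to 13.1) of 1cyc and 7.21% (5.59 to 9.11) of TN nuclei, with overlapping intervals and unthinned shares of 20.5% and 15.1%, against 1.72% and 2.46% of fibroblast or progenitor nuclei. In that class Pparg was present in 31.0% of 1cyc and 39.3% of TN nuclei, Esrrg in 10.3% and 10.7%, Thrb in 15.5% and 14.8%, and Rora in 70.7% and 67.2%. Nuclei with 0 Ppara UMIs were 8.45% in 1cyc and 19.1% in TN, and those with at least 4 were 40.0% and 30.2%. Both Ppara and Pparg were present in 78.2% of 1cyc nuclei and 71.8% of TN nuclei. The product of the single shares was 78.4% in 1cyc and 69.9% in TN.

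Adipocyte nuclei were also clustered without the 46 members, so that receptor levels did not set the groups. The larger subcluster held 738 nuclei in 1cyc and 751 in TN. The smaller one held 28 in 1cyc and 102 in TN, or 3.59% (2.40 to 5.15) and 11.5% (9.46 to 13.8) of adipocyte nuclei, and was led by Slc7a10, an amino acid transporter known as a marker of white adipocytes, Nnat and Dock11. Another 4 small subclusters, with 13 nuclei in 1cyc and 35 in TN, were led by endothelial, fibroblast, muscle or haemoglobin genes. They held 2.03% of adipocyte UMIs in 1cyc and 9.10% in TN.

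Ppara and Esrrg differed most between the subclusters in both libraries. Ppara was at 764 CPM in the smaller and 6494 CPM in the larger subcluster of 1cyc, a ratio of 0.118 (0.0804 to 0.166), and at 615 CPM and 5674 CPM in TN, a ratio of 0.108 (0.0876 to 0.133). Esrrg was at 239 CPM and 3152 CPM in 1cyc (0.0758, 0.0363 to 0.140) and at 307 CPM and 3614 CPM in TN (0.0851, 0.0626 to 0.113). The levels of both genes in the smaller subcluster were near those of fibroblast or progenitor nuclei, which had 541 CPM of Ppara in 1cyc and 548 CPM in TN, and 338 CPM and 274 CPM of Esrrg. Rarb was also low, at 0.279 (0.0571 to 0.826) of its level in the larger subcluster in 1cyc and 0.175 (0.0748 to 0.352) in TN. Pparg differed less, at 0.735 (0.624 to 0.861) in 1cyc and 0.720 (0.659 to 0.786) in TN. Nr6a1 and Esrra were below 1 in both libraries, but the 1cyc intervals reached 1. On the other side, Rora was 1.85 times (1.46 to 2.31) as high in the smaller subcluster in 1cyc and 1.51 times (1.30 to 1.75) in TN, and Nr3c1 2.67 times (1.77 to 3.90) and 1.68 times (1.27 to 2.21). Esr1 was higher too, by 1.57 (0.966 to 2.42) in 1cyc and 1.80 (1.41 to 2.28) in TN.

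At least 1.5-fold differences between the subclusters were common in all genes and in the family alike. In 1cyc, 4 of the 14 measured members were higher in the smaller subcluster and 5 lower, against 17.8% and 36.5% of 1739 genes. In TN, 3 were higher and 6 lower, against 15.7% and 30.1% of 1738 genes. The nuclei were grouped by other genes of the same cells, so these values describe the subclusters and are no test.

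**Figure D2:**
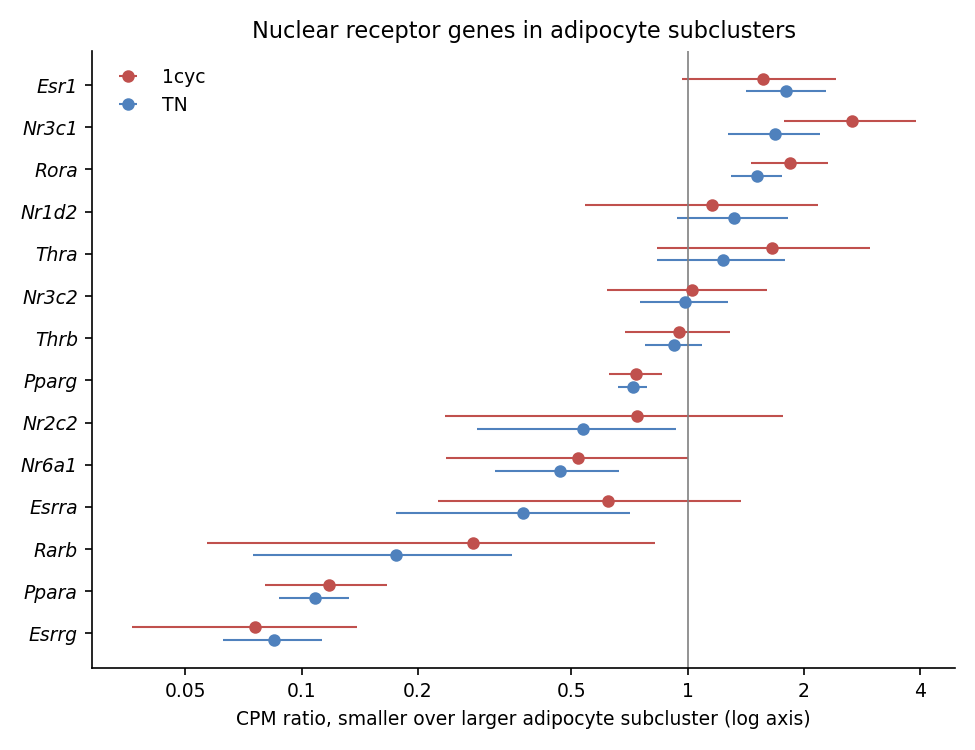
CPM in the smaller over CPM in the larger adipocyte subcluster for the 14 measured nuclear receptor genes, on a log axis, in 1cyc (red) and TN (blue), with 95% intervals for counting error. Esrrg, Ppara and Rarb lie far to the left of 1 in both libraries, and Rora and Nr3c1 to the right in both.

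Because the smaller subcluster and the nuclei led by other cell types' genes were scarcer in 1cyc, the ratios were read again inside the larger subcluster. Ppara was at 6494 CPM (6323 to 6668) in 1cyc and 5674 CPM (5506 to 5846) in TN there, a ratio of 1.14 (1.10 to 1.19), against 1.37 over all adipocyte nuclei. Esrra was at 231 CPM (199 to 266) in 1cyc and 171 CPM (143 to 203) in TN, a ratio of 1.35 (1.08 to 1.70). Pparg was at 5230 CPM and 5147 CPM, with a ratio of 1.02 (0.973 to 1.06) that spans 1. Esrrg turned to the other side of 1, at 3152 CPM (3033 to 3274) in 1cyc and 3614 CPM (3480 to 3751) in TN, a ratio of 0.872 (0.827 to 0.920). Rora stayed above 1, at 1112 CPM and 976 CPM (1.14, 1.03 to 1.26). Of the 14 members, 1 was at least 25% higher and 0 at least 20% lower, against 18.6% and 12.5% of all 3309 measured genes. Members and all genes were again not matched for counts. The family sum had a ratio of 1.03 in this subcluster. Among members under the minimum, Nr1d1 had 23 UMIs in 1cyc and 6 in TN, Rxrb 19 and 6, Rxrg 23 and 9, and Nr1h2 16 and 3, each with an interval above 1.

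Across cell classes, Ppara was far higher in adipocyte nuclei than in fibroblast or progenitor, endothelial and skeletal muscle nuclei. Classes came from clusters named by marker genes, with nuclei that passed the adipocyte gate left out of the other classes. The clusters were built with all genes, so the levels are a description. The fibroblast or progenitor class had 70 nuclei in 1cyc and 122 in TN, the endothelial class 21 and 47, the skeletal muscle class 9 and 27, the pericyte class 7 and 16, and the macrophage or monocyte class, whose leading genes also include the B cell genes Bank1 and Ighm, 9 and 19. The smooth muscle class, with 2 and 7 nuclei, was too small to describe. Ppara was at 456 CPM in endothelial nuclei of 1cyc and 384 CPM of TN, and at 522 CPM and 485 CPM in muscle nuclei. With the fibroblast values, this puts it at 0.0743 to 0.0882 of the adipocyte level in 1cyc and 0.0859 to 0.123 in TN in the 3 classes. Free RNA was not measured, so these low levels are not read as expression. Pparg differed more between classes. Endothelial nuclei had 1936 CPM (1341 to 2705) in 1cyc and 1893 CPM (1595 to 2229) in TN, while fibroblast or progenitor nuclei had 824 CPM and 893 CPM. Pparg is known to act in capillary endothelium of fat tissue in the uptake of fatty acids.

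Esrrg and Thrb were shared with skeletal muscle nuclei. Esrrg was at 1393 CPM (796 to 2261) in muscle nuclei of 1cyc and 1491 CPM (1079 to 2008) of TN, above the fibroblast or progenitor level and below the adipocyte level. Thrb was at 1305 CPM (731 to 2153) in muscle nuclei of 1cyc and 2045 CPM (1557 to 2638) of TN, which in TN was 1.95 times (1.48 to 2.54) the adipocyte level. Nr3c2 was 2.59 times (1.40 to 4.39) the adipocyte level in muscle nuclei of 1cyc and 2.14 times (1.40 to 3.13) of TN.

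Rora was higher in fibroblast, pericyte and muscle nuclei than in adipocyte nuclei. It was at 3162 CPM (2770 to 3594) in fibroblast or progenitor nuclei of 1cyc and 2960 CPM (2694 to 3246) of TN, 2.71 times (2.34 to 3.13) and 2.79 times (2.49 to 3.11) the adipocyte level. Pericyte nuclei had 3895 CPM (2608 to 5593) in 1cyc and 2290 CPM (1739 to 2961) in TN, and muscle nuclei 2698 CPM and 3016 CPM. The pericyte ratio of 1.70 (1.05 to 2.70) rests on 29 and 58 UMIs and was the only one of 16 class ratios outside adipocytes, each with at least 50 UMIs, whose interval left out 1. Macrophage or monocyte nuclei had 1 Rora UMI in 1cyc and 5 in TN. Rorb was present at 162 CPM (83.8 to 283) in fibroblast or progenitor nuclei of 1cyc and 104 CPM (59.6 to 169) of TN, against 25.5 CPM and 24.8 CPM in adipocyte nuclei.

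**Figure D3:**
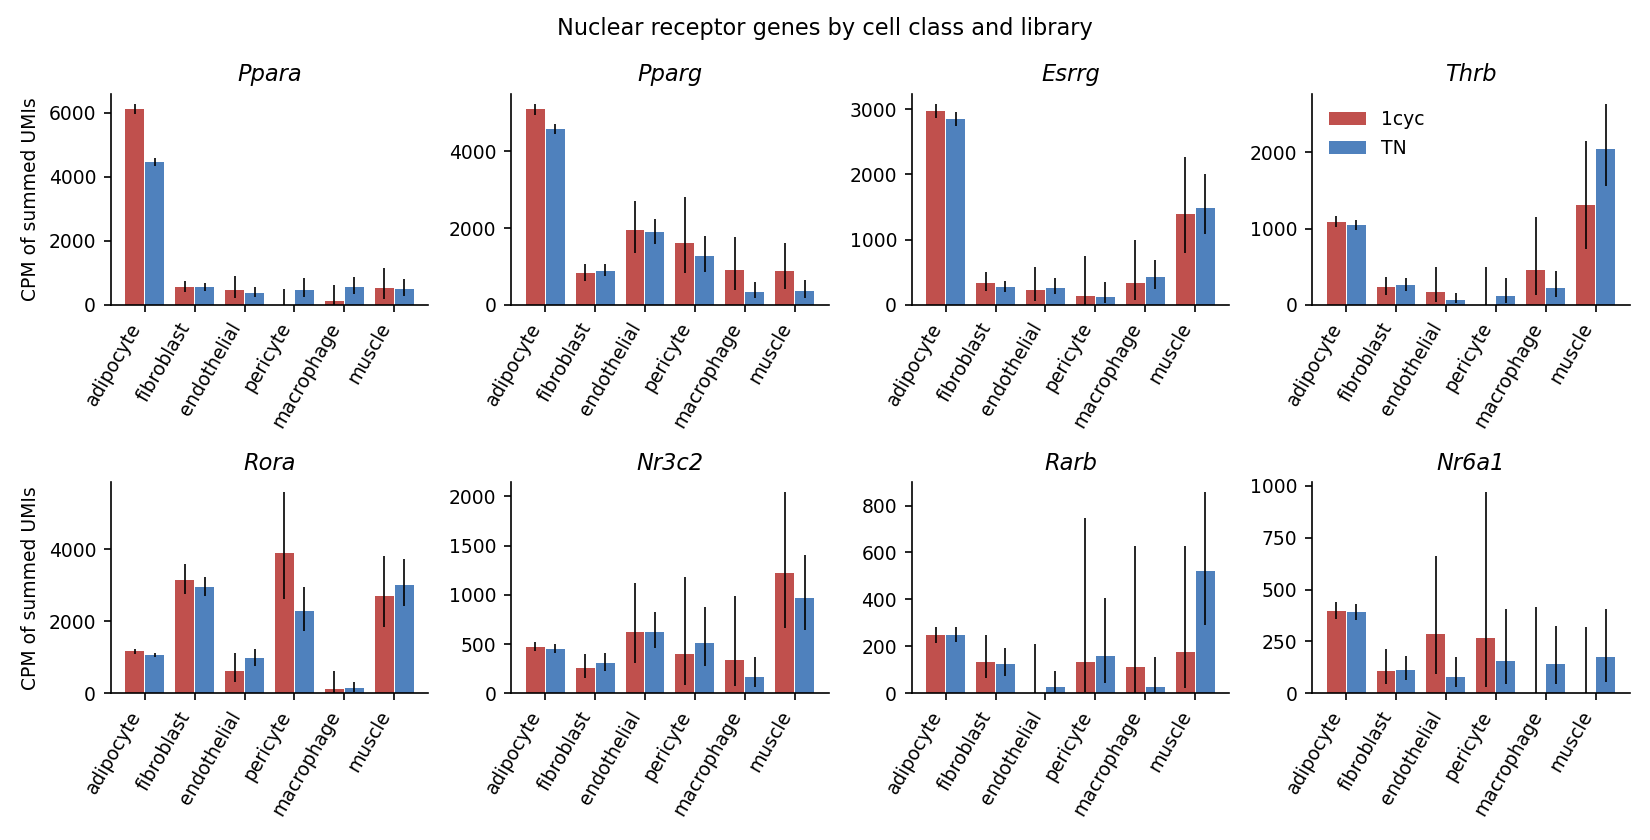
CPM of 8 nuclear receptor genes by cell class, with 1cyc (red) left of TN (blue) in each pair and bars for 95% Poisson intervals. Ppara, Pparg and Esrrg are highest in adipocyte nuclei of both libraries, Rora is higher in fibroblast, pericyte and muscle nuclei than in adipocyte nuclei, and Thrb in TN is highest in muscle nuclei.

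The ratios of the most abundant receptors moved with depth and mitochondrial share. Ppara was higher in 1cyc in each of the 3 depth strata, with ratios of 1.23 (1.11 to 1.37) under 700 UMIs per nucleus, 1.35 (1.26 to 1.43) from 700 to 1200 and 1.56 (1.47 to 1.65) above. By mitochondrial share it ran from 2.29 (2.03 to 2.58) under 1% and 1.53 at 1% to 2% to 1.29 at 2% to 3% and 1.15 at 3% to 5%. The TN stratum under 1% summed to 139920 UMIs, and without haemoglobin-rich nuclei and other types' subclusters to 104390 UMIs. Without them the Ppara ratio under 1% was 1.73 (1.54 to 1.95), and in the larger subcluster it was 1.23 (1.10 to 1.39) under 1% and 1.10 (1.01 to 1.19) at 3% to 5%. In all gated nuclei of 1cyc Ppara was at 5839 CPM under 1% and 5926 CPM at 3% to 5%, while in TN it was at 2551 CPM and 5144 CPM in the same strata. Pparg was lower in 1cyc in the shallowest nuclei (3946 CPM in 1cyc, 4654 CPM in TN, ratio 0.848) and higher in the deepest (5433 CPM, 4186 CPM, ratio 1.30). Esrrg ran from 0.873 to 1.26 over the same strata. The stratum under 700 UMIs reached lower in 1cyc, where 69 of its 186 nuclei had under 500 UMIs (lowest 268), than in TN (0 under 500, lowest 501). The deepest nuclei of the larger subcluster had ratios of 1.08 (1.02 to 1.15) for Ppara, 1.08 (1.02 to 1.15) for Pparg and 0.866 (0.801 to 0.938) for Esrrg. The smaller subcluster, low in Ppara and Esrrg, had a median of 1299 UMIs per nucleus in 1cyc and 1355.5 in TN, against 1033.5 and 874 in the larger one. These values in the larger subcluster were computed after seeing the data, and the part of depth and mitochondrial share in the ratios was not tested.

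**Figure D4:**
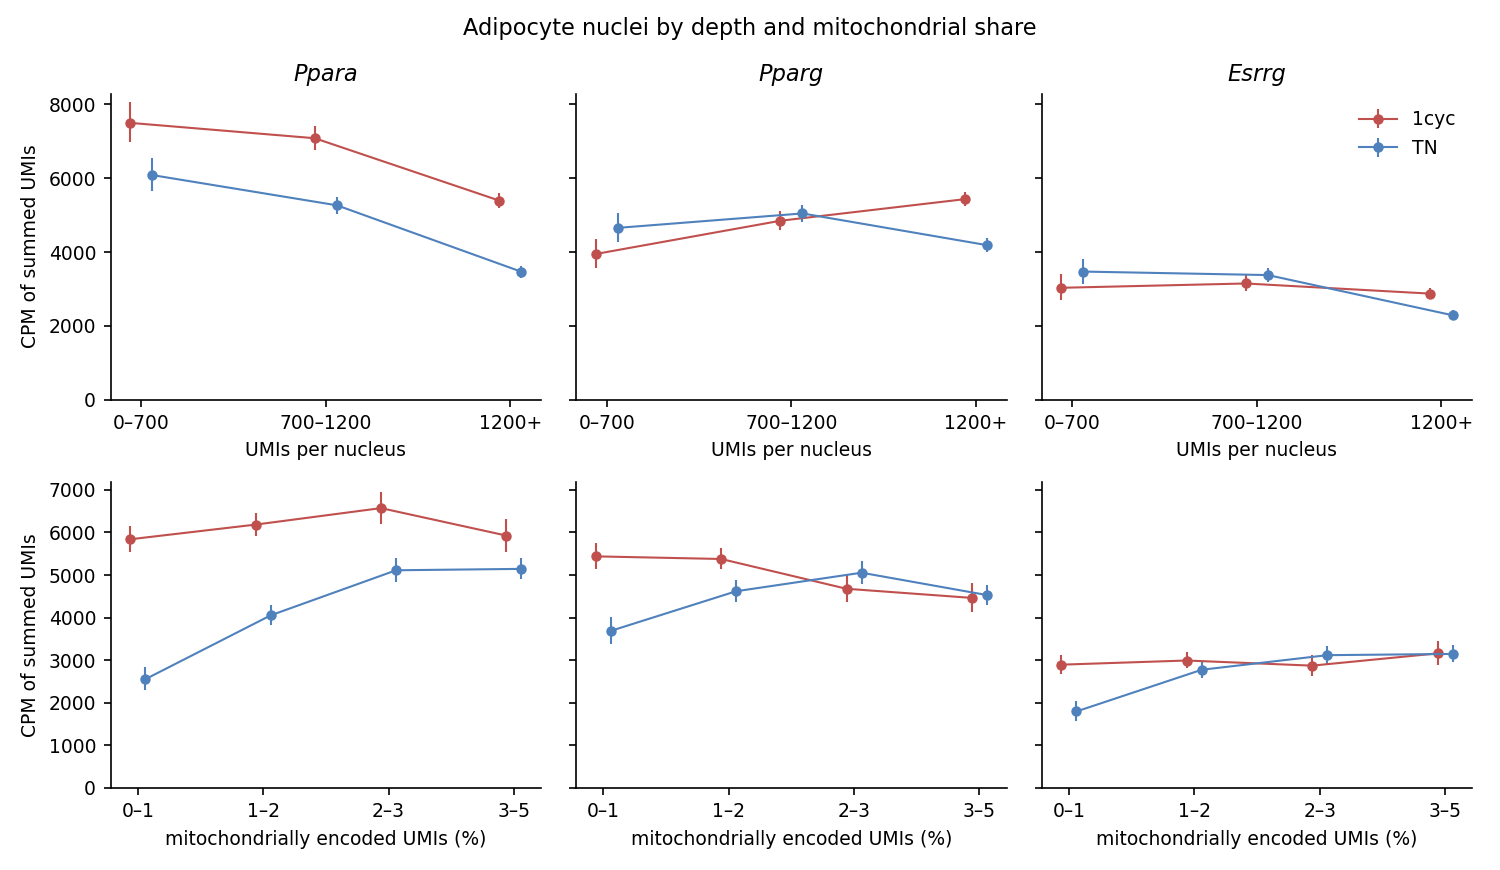
CPM of Ppara, Pparg and Esrrg in adipocyte nuclei by UMIs per nucleus (top) and by mitochondrially encoded share (bottom), in 1cyc (red) and TN (blue), with 95% Poisson intervals. Ppara in 1cyc lies above TN in all 7 strata, while the Pparg and Esrrg lines cross.

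For the gene lists that follow, the shares over all measured genes are again 23.6% at least 25% higher and 11% at least 20% lower, and 18.6% and 12.5% in the larger subcluster. Coregulator counts were near these shares. Of 16 listed coactivators, 12 were measured, 2 at least 25% higher in 1cyc and 1 at least 20% lower, with a median log2 ratio of 0.10. Ppargc1b, a coactivator of PPARs and oestrogen-related receptors, was at 2329 CPM in 1cyc and 1626 CPM in TN (1.43, 1.34 to 1.53), and its relative Ppargc1a, the cold-induced coactivator of brown fat, at 303 CPM and 204 CPM (1.48, 1.23 to 1.79). Both were also above 1 in the larger subcluster, at 1.20 (1.12 to 1.28) and 1.27 (1.05 to 1.54). Kat2b, a histone acetyltransferase, was lower, at 192 CPM in 1cyc and 288 CPM in TN (0.668, 0.550 to 0.809). Of 10 corepressors, 7 were measured, 0 at least 25% higher and 1 at least 20% lower. That gene was Nrip1, which restrains Ucp1 and oxidative genes in fat, at 216 CPM in 1cyc and 336 CPM in TN (0.644, 0.537 to 0.770), and at 0.786 (0.621 to 0.992) in the larger subcluster. Ncor1, the corepressor with the most UMIs, was at 757 CPM and 794 CPM (0.953, 0.859 to 1.06).

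Few genes of ligand supply were abundant enough to measure. Of 17 retinoid genes 2 were measured, and Aldh1a1, which makes retinoic acid, was lower, at 37.7 CPM in 1cyc and 167 CPM in TN (0.227, 0.152 to 0.329). Nearly all of it lay outside the larger subcluster, which held 6 Aldh1a1 UMIs of 34 in 1cyc and 9 of 168 in TN. Of 8 thyroid hormone genes 3 were measured, with 0 at least 25% higher and 0 at least 20% lower. They include the carriers Slc16a10 (1.07) and Slc7a8 (1.21, 0.870 to 1.69), whose intervals span 1. Dio2, which makes the active thyroid hormone, had 11 UMIs in 1cyc and 6 in TN. Of 11 steroid genes 3 were measured and 2 were at least 25% higher, Hsd17b12 (1.49, 1.13 to 1.97) and the chaperone gene Hsp90ab1 (1.35, 0.988 to 1.85).

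Target genes of the receptors were taken from 6 lists of textbook targets, some of which share genes, and some targets answer to more than 1 receptor. Of 22 measured PPAR targets, 18 were above 1, against 61.2% of all genes. Of the 22, 6 were at least 25% higher, near the 23.6% of all genes, and 1 at least 20% lower, with a median log2 ratio of 0.22 against 0.08 for all genes. Ucp3, a mitochondrial carrier, was at 89.9 CPM in 1cyc and 36.7 CPM in TN (2.45, 1.64 to 3.72), and Vldlr, a receptor for triglyceride-rich lipoproteins, at 134 CPM and 64.5 CPM (2.08, 1.53 to 2.86). Plin1, a lipid droplet coat gene that is also in the adipocyte gate, was at 675 CPM and 500 CPM (1.35, 1.20 to 1.52), and Slc27a1, a fatty acid transporter, was the lower one, at 206 CPM and 303 CPM (0.680, 0.564 to 0.819). In the larger subcluster 7 of the 22 were at least 25% higher and 1 at least 20% lower, and the median log2 ratio was 0.16 against 0.02 for all genes.

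All 9 measured targets of oestrogen-related receptors stood above the median ratio of all genes, 1.06, with the lowest, Sdha, at 1.11, and 4 were at least 25% higher. The median log2 ratio was 0.32. Vegfa, the vascular growth factor, was at 1634 CPM in 1cyc and 907 CPM in TN (1.80, 1.66 to 1.96). Idh3a, of the citrate cycle, was at 1.54 (1.17 to 2.05) and Acadm, of medium-chain fatty acid oxidation, at 1.31 (1.12 to 1.52). In the larger subcluster the median log2 ratio of this list was 0.10, and 2 of the 9 were at least 25% higher. Of 6 thyroid hormone receptor targets 3 were at least 25% higher, led by Ucp1 at 286 CPM in 1cyc and 132 CPM in TN (2.17, 1.75 to 2.70) and Thrsp, a lipogenic gene, at 307 CPM and 186 CPM (1.65). Within the larger subcluster 3 of the 6 were at least 25% higher and 1, Klf9 (0.794, 0.602 to 1.05), at least 20% lower. A list of thermogenic genes was kept for orientation and shares Ucp1 and Ppargc1a with the lists above. It had 6 of 7 measured genes at least 25% higher and 0 at least 20% lower, with Adrb3 at 94.3 CPM and 115 CPM (0.820, 0.613 to 1.09). Cidea, 1 of the 6, is also in the adipocyte gate. In the larger subcluster 5 of the 7 were at least 25% higher and 0 at least 20% lower. Cidea was at 1.16 (1.04 to 1.29) there and Pank1 at 1.14 (1.07 to 1.22). Adrb3, a leading gene of the smaller subcluster, lay on the other side of 1 in the larger one, with 34 UMIs in 1cyc and 13 in TN (2.37, 1.22 to 4.88).

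Of 5 measured LXR targets, 4 were at least 25% higher and 1 at least 20% lower, although the LXR genes themselves had at most 45 UMIs in a library. Scd1, a fatty acid desaturase that several factors control, was at 215 CPM in 1cyc and 71.4 CPM in TN (3.02, 2.29 to 4.01). Lpcat3, a phospholipid remodelling enzyme, was at 174 CPM and 101 CPM (1.72, 1.33 to 2.23), and Mylip, which targets the LDL receptor for degradation, at 160 CPM and 94.2 CPM (1.70, 1.30 to 2.22). Abca1, the cholesterol exporter, was lower, at 195 CPM and 245 CPM (0.798, 0.654 to 0.972), and at 1.05 (0.820 to 1.35) in the larger subcluster. Only 2 of 12 targets of REV-ERB and ROR receptors were measured, Tef (1.19, 1.02 to 1.39) and Clock (interval 0.969 to 1.63). Of 4 glucocorticoid receptor targets, 0 were at least 25% higher and 1 at least 20% lower, Pik3r1, a regulatory subunit of phosphoinositide kinase (0.745, 0.649 to 0.855). Pik3r1 was at 0.856 (0.732 to 1.00) in the larger subcluster, no longer past the limit, while Zbtb16 was at least 25% higher (1.36, 1.13 to 1.64) and Klf9 at least 20% lower.

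Reads of overlapping genes limit some of these counts. In GENCODE M21 on mm10, 16 members overlap a gene on the opposite strand and 1, Nr2e3, a gene on its own strand, and the strand setting of the counting was not stated. Thra and Nr1d1 overlap by 1075 bases, so their counts may be mixed. Esrra overlaps Trmt112 by 73 bases, a gene with 3 UMIs in 1cyc and 5 in TN adipocyte nuclei. Rarb overlaps Top2b by 4624 bases, and Top2b had 86 and 99 UMIs against 223 and 252 for Rarb. Ppara has no overlapping gene there.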

How the data were processed

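Each library's matrix holds counts, the whole-number UMIs per gene and barcode, as deposited. Per the submitters' processing notes the authors used Cell Ranger 3 with build mm10, and per the file headers the version was 3.1.0. For the annotation, intronic reads and strand, the settings were not given in the sources used here. Deposited counts of gated nuclei were summed per library and scaled to CPM. Adipocyte nuclei had at least 3 UMIs over 5 gate genes and under 5% mitochondrially encoded UMIs. A gene got a ratio from 100 UMIs upward, summed over the adipocyte nuclei of both libraries. Intervals are 95%, by exact Poisson limits for levels, a conditional binomial for ratios and Clopper-Pearson for shares, and cover counting error only. With 1 library per condition no test was made between conditions.

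Cells were clustered in scanpy 1.11.5 (2000 variable genes, 30 components, Leiden resolution 0.6, at least 200 detected genes), and adipocyte nuclei again without the 46 members (resolution 0.4). Scrublet called 7 adipocyte nuclei in 1cyc and 8 in TN as doublets. They were kept, and removed in an alternative. The precision follows from 900977 UMIs in 1cyc and 1008450 in TN. TMM scaling came from edgeR 4.0.16 in R 4.3.3, and the rest from Python 3.11.15, numpy 2.4.6, scipy 1.17.1, pandas 2.3.3 and matplotlib 3.10.9. The ratio code was tested on simulated data. Promoters were RefSeq windows of GRCm38.p6, and overlaps came from GENCODE M21.

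The members, gene lists and settings were chosen with earlier results of these data known. All 46 members are accounted for, and from each list up to 4 measured genes were named, those whose interval bound lay farthest from 1. Some listed genes are not reported here. Others are named for their role, after their values were seen. Alternatives changed the gate, mitochondrial limit, scaling, depth, doublets, subclusters and minimum.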

Additional observations from a re-analysis of the deposited data

Results flagged for a closer look

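Some receptors had ratios on opposite sides of 1 in different strata of adipocyte nuclei, with intervals on each side that left out 1. The strata were cut within single libraries and the differences between them were not tested. Pparg, needed for adipocyte identity, had a ratio of 1cyc over TN of 1.30 (1.23 to 1.37) in nuclei with 1200 or more UMIs and 0.848 (0.743 to 0.967) in nuclei under 700 UMIs. Under 700 UMIs the libraries differed in depth, since 69 nuclei in 1cyc and 0 in TN had under 500 UMIs. By Ucp1, Pparg had a ratio of 0.892 in nuclei with a Ucp1 UMI and 1.14 in nuclei without one. Esrrg had 0.845 with and 1.08 without a Ucp1 UMI. Nuclei with a Ucp1 UMI numbered 169 in 1cyc and 94 in TN, and detection of Ucp1 itself depends on depth. Rarb had a ratio of 2.75 in nuclei with under 1% mitochondrially encoded UMIs and 0.653 at 3% to 5%. The TN value under 1% rests on 14 Rarb UMIs in 139920 UMIs. Without haemoglobin-rich nuclei and other types' subclusters the Rarb ratio under 1% was 2.01 (1.11 to 3.89), and in the larger subcluster 1.40 (0.773 to 2.71), which spans 1. At 3% to 5% the Rarb ratio in the larger subcluster was 0.681 (0.443 to 1.02), which also spans 1. In the larger subcluster Pparg still had 1.08 (1.02 to 1.15) in the deepest and 0.822 (0.719 to 0.940) in the shallowest nuclei. Nr6a1 had 1.40 at 1% to 2% and 0.728 at 2% to 3%. In the larger subcluster Nr6a1 had 1.20 (0.910 to 1.59) at 1% to 2%, which spans 1, and 0.649 (0.475 to 0.879) at 2% to 3%.

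Barcodes outside the main measurement also carried receptor RNA. In 1cyc, 442 barcodes passed the adipocyte gate with at least 20% mitochondrially encoded UMIs, against 12 in TN. With mitochondrially encoded genes taken out of the totals, those 1cyc barcodes had 6342 CPM of Ppara, 4423 CPM of Pparg and 2270 CPM of Esrrg. The TN barcodes had 1649 CPM, 2249 CPM and 1049 CPM of these genes. In adipocyte nuclei under 5%, on the same totals, Ppara was at 6244 CPM in 1cyc and 4578 CPM in TN.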

How the results depend on the processing

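Over 15 alternative settings each, Ppara stayed above 1 in 15 (1.14 to 1.70) and Esrra at least 25% higher in 15 (1.35 to 1.64), though Esrra was under 1.5 in 9. Pparg was above 1 in 13 (lowest 0.993) and Esrrg in 7 (0.872 to 1.20). Of 210 recomputed member ratios 175 stayed inside the interval of the main ratio and 35 did not. A reversal was counted only for a member past 1.5-fold, so for Esrra alone, and Esrra did not reverse. Other members near 1 did cross it, such as Thrb, which was above 1 in 9 of 15 settings. The count of members at least 1.5-fold higher, 1 as reported, was 0 with a 10% mitochondrial limit, a gate of 5 UMIs, TMM, median-of-ratios scaling, equal weight per nucleus, the larger subcluster, and without haemoglobin-rich nuclei and other types' subclusters (chosen after seeing the data). It was 2 of 19 members at a minimum of 50 UMIs, against 11.4% of all genes there. With 1 UMI in each library it was 8 of 33 members, against 23.7% of all genes. In that setting 1 member was at least 1.5-fold lower, against 15.1% of all genes. Where the count at least 1.5-fold higher stayed at 1, the gene was not always Esrra. At a 2% limit it was Ppara (1.70), and Esrra was under 1.5. The count at least 25% higher, 2 as reported, was 4 of 14 at a 2% limit, 1 with median-of-ratios scaling or the larger subcluster, and 12 of 33 with 1 UMI. The count at least 20% lower, 0 as reported, was 1 with median-of-ratios scaling, thinning, equal weight or a minimum of 50, and 2 of 33 with 1 UMI. Shares of all genes past the 25% and 20% limits were computed only for the main setting and the larger subcluster. The ratio of the family sum, 1.15 as reported, was 1.30 at a 2% limit, 1.08 with no limit or equal weight, 1.21 at a gate of 2, 1.10 by named clusters, thinned, or without haemoglobin-rich and other types' nuclei, 1.06 with TMM, and 1.03 with median-of-ratios scaling or the larger subcluster. The cause was not tested. Of 34 class values, 34 held at Leiden resolution 1.0, 31 with gated nuclei kept in their class and 23 at a 2% limit. No paired analysis was possible because each condition has 1 library, so no library could be left out either. Depth limits the 32 members under 100 UMIs, where a ratio near 1.5 cannot be told from 1.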

Other observations

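Several genes of ligand supply and receptor targets under 100 UMIs also differed, and are named here after their values were seen. Their intervals cover counting error only, and the share of all genes under 100 UMIs whose interval left out 1 was not computed. Fkbp5, a chaperone gene that glucocorticoids induce, had 11 UMIs in 1cyc and 63 in TN (0.195, 0.0929 to 0.374), and Errfi1, another glucocorticoid target, had 24 and 55 (0.488, 0.289 to 0.802). In the larger subcluster Fkbp5 had 5 UMIs in 1cyc and 12 in TN and its interval spans 1, while Errfi1 had 20 and 34 (0.532, 0.290 to 0.951).

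Of the 10 REV-ERB and ROR targets under the minimum, Arntl and Per2 had intervals that left out 1. Arntl, which the REV-ERBs repress, had 13 UMIs in 1cyc and 2 in TN, and Per2, a repressor of the clock, 32 and 63 (0.569, 0.359 to 0.883). In the larger subcluster Per2 had 26 UMIs in 1cyc and 51 in TN (0.461, 0.276 to 0.753).

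Dhrs9, a retinol dehydrogenase gene, had 28 UMIs in 1cyc and 3 in TN, all in the larger subcluster. Sin3b, a corepressor scaffold, had 46 UMIs in 1cyc and 16 in TN (3.22, 1.79 to 6.09). Acadvl, of very long-chain fatty acid oxidation, had 49 and 25 (2.19, 1.33 to 3.71).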
